A study of Mus musculus with 48 samples.

Results

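Transcripts of 10 immediate early genes, Fos, Fosb, Jun, Junb, Egr1, Atf3, Ier2, Dusp1, Nr4a1 and Zfp36, were followed across 48 RNA-seq libraries of mouse mammary gland. The 10 were chosen by symbol from the 55487 genes of the deposited TPM table, and each symbol had 1 row. TPM is a transcript abundance corrected for length and scaled to the same total in each library. All mice carried MMTV-rtTA, a tetracycline-dependent activator driven by a mammary tumour virus promoter that is active mainly in epithelium, and a tet-op transgene that it switches on. The transgene was tet-op-Esr1, with the gene of estrogen receptor alpha, or tet-op-CYP19A1, with the human symbol of aromatase, the enzyme that makes estrogens. Each model had 8 groups of 3 libraries from the thoracic gland. In both models glands were taken after 1 week of induction and without induction at 12 months of age, and likewise at 18 months. At 24 months of age they were taken without induction, after 6 months and after 12 months of induction, and at 30 months of age after 18 months of induction. No uninduced gland of 30 months was measured, so age and induction cannot be told apart there. No group had the inducing drug without such a transgene, so drug and transgene cannot be told apart either. Libraries of a group are titled biological replicates, and nothing states that they came from separate mice. The p-values therefore cover the spread among these libraries, which may be technical.

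Immediate early genes are transcribed within minutes of a growth factor, stress or calcium signal, without new protein synthesis, and their transcripts are short-lived. Fos, Fosb, Jun and Junb encode subunits of AP-1, a dimeric transcription factor, and Atf3 encodes a related factor induced by stress. Egr1 encodes a zinc finger factor downstream of serum response factor, Nr4a1 an orphan nuclear receptor, and Ier2 a small regulator that was named for this class. Dusp1 encodes a phosphatase that switches MAP kinases off, and Zfp36 encodes tristetraprolin, which speeds the decay of AU-rich transcripts, so both limit the response. These genes can also respond to tissue handling, about which the labels say only that glands were flash frozen.

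The libraries differed in ways that touched these genes. Lars2, a protein-coding gene, is counted with the ribosomal RNA genes throughout, and its part was not separated. Together they took over 10% of TPM in 9 libraries, up to 67.2%. All 3 CYP19A1 libraries after 1 week of induction at 12 months were among them, with 2 uninduced CYP19A1 libraries of 12 months, 1 of 18 months and 1 of 24 months, and in the Esr1 model 1 library after 6 months and 1 after 18 months of induction. Marker genes of skeletal muscle summed to between 157 and 37959 TPM, those of luminal epithelium to between 79.0 and 942 TPM, those of white adipocytes to between 2120 and 8870 TPM and those of macrophages to between 22.1 and 152 TPM. None of the markers in these 4 lists was at 0 in any library, and the epithelium expected in a mammary gland was detected throughout. In whole tissue, fewer cells of a type and less RNA per cell cannot be told apart. Mouse Esr1 lay between 6.39 and 25.9 TPM in 15 induced Esr1 libraries and between 8.88 and 16.3 TPM in the 9 uninduced ones. Mouse Cyp19a1 was at most 0.29 TPM in any library, and human transgene reads need not be counted there.

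All 10 genes were detected in every library and all passed the filter on low values (at least 1 TPM in at least 3 libraries). Dusp1 was the most abundant, with a mean of 19.5 TPM over the 48 libraries (5.98 to 50.2 TPM). Jun and Junb followed with means of 15.4 TPM (4.03 to 25.6 TPM) and 14.9 TPM (3.42 to 31.8 TPM). Zfp36 averaged 8.4 TPM, Fos 8.15 TPM and Nr4a1 7.59 TPM. Ier2 averaged 5.11 TPM, Atf3 4.30 TPM and Egr1 4.03 TPM. Fosb was the scarcest, with a mean of 0.724 TPM, and reached 1 TPM in 11 of the 48 libraries. The highest library exceeded the lowest 15.3-fold for Fos and 32.2-fold for the scarce Fosb, and 5.73-fold for Ier2, the smallest span. Replicate 1 of the uninduced 12-month CYP19A1 glands, the library with 67.2% ribosomal RNA, held the lowest value of 8 of the 10, shared with another library for Atf3. The exceptions were Fosb and Dusp1. When groups were ordered by their means, the next group lay within 1 SD for 15 of 15 neighbouring pairs for 7 of the genes, and for 14 of 15 for Egr1, Atf3 and Ier2. Sorting the means of 16 groups leaves small steps between neighbours, so these counts do not show how far groups differ. That was asked with the F test described further on.

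**Figure D1:**
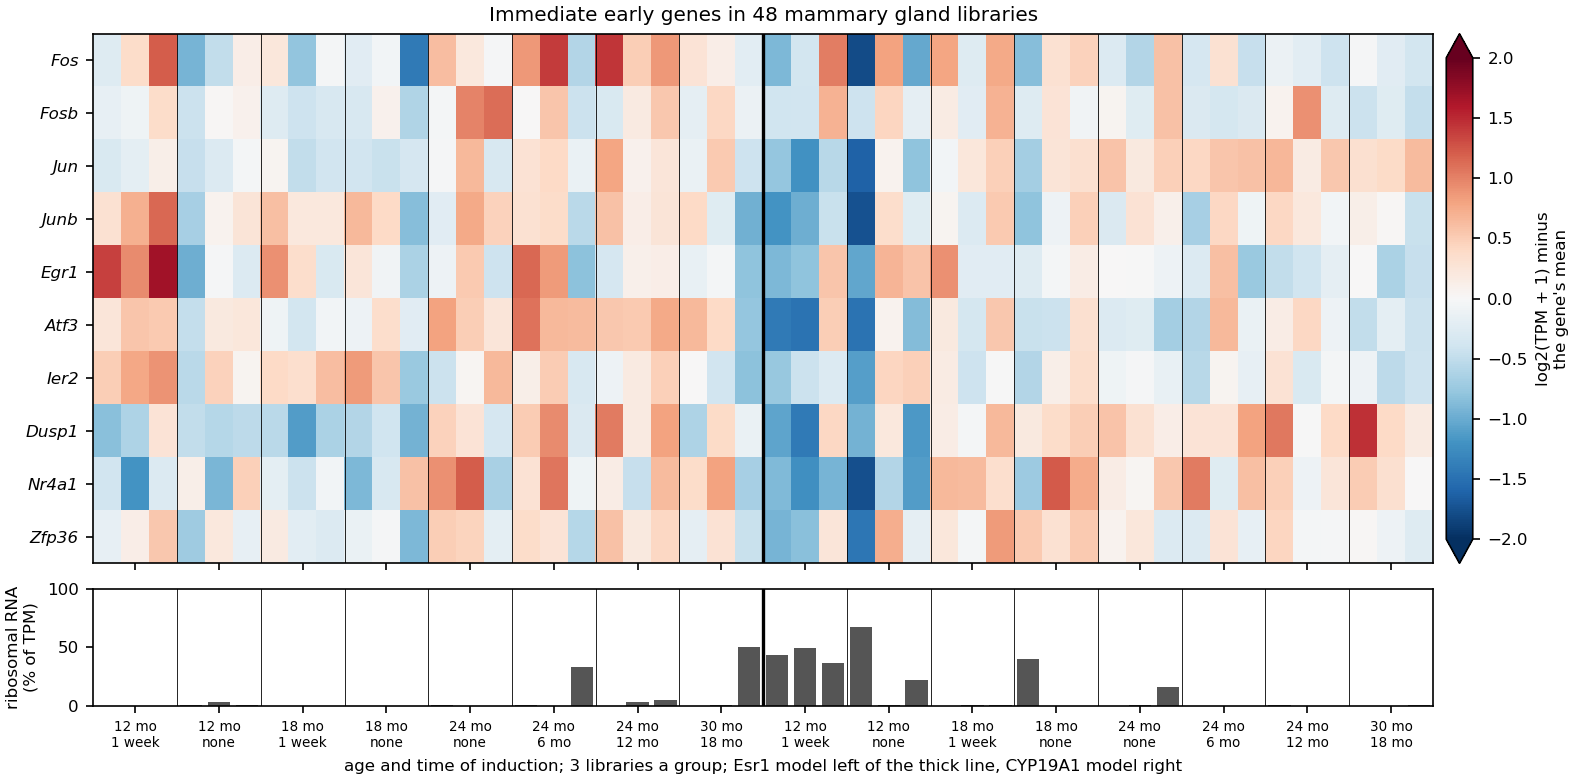
Each column is 1 library and each row 1 gene, coloured by log2(TPM + 1) minus the gene's mean over the 48 libraries. The bars give the percent of TPM on ribosomal RNA genes, and the darkest blue column stands over the library at 67.2%. The 3 libraries of a group often differ as much as groups do.

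The promoters of 5 genes are shown because Fos with Zfp36 and Atf3, and Dusp1 with Jun, are among the pairs with high correlations across libraries described further on. Junb and Nr4a1, which also belong to high pairs, are not shown. Sequences are the 250 bases before the RefSeq transcription start (GRCm38.p6), 5′ to 3′ on the gene's strand. Capitals mark matches, on either strand, to the motifs that were searched. These were the CArG box bound by serum response factor, the cyclic AMP response element TGACGTCA and its shorter core TGACGT, the AP-1 site TGANTCA, the EGR site GCGNGGGCG, the TATA box TATAAA and the GC box GGGCGG. Adjacent matches run together in the capitals, and a full cyclic AMP response element also counts as cores.
Fos, chr12:85473640-85473889, plus strand: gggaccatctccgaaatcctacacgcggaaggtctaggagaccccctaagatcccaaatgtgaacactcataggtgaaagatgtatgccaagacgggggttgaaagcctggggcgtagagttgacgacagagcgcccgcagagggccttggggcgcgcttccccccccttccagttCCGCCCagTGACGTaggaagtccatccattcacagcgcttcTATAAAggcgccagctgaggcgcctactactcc
Zfp36, chr7:28379229-28379478, minus strand: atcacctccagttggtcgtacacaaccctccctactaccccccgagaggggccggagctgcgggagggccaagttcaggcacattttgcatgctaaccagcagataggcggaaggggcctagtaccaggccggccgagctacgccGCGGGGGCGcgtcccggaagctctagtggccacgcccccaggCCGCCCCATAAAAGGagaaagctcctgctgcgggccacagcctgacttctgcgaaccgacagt
Atf3, chr1:191183334-191183583, minus strand: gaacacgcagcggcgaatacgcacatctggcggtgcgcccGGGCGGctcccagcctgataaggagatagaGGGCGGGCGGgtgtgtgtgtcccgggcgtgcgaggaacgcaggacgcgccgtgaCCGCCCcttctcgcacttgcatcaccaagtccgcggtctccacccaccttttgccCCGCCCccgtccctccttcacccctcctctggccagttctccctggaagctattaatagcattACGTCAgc
Dusp1, chr17:26508473-26508722, minus strand: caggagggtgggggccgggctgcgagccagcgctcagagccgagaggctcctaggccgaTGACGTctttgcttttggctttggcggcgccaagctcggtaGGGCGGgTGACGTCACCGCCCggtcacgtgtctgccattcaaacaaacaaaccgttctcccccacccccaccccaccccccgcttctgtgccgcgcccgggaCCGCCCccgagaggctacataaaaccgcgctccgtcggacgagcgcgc
Jun, chr4:95052223-95052472, minus strand: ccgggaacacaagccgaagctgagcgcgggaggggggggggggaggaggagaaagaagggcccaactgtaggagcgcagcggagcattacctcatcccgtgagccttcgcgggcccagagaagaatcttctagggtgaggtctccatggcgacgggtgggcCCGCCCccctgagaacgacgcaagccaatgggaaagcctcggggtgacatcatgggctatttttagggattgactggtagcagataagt
The Fos promoter held a GC box, the core TGACGT from 66 to 61 bases before the start and a TATA box from 33 to 28 bases before it. The Dusp1 promoter held 3 GC boxes and, from 143 to 136 bases before the start, the full element TGACGTCA, which is found in 1.55% of the 32851 promoters of the table. The Zfp36 promoter held a CArG box, found in 1.47% of all promoters, that shares a base with a GC box, and further upstream an EGR site. In the Atf3 promoter the core lay from 8 to 3 bases before the start, and in the Jun promoter a single GC box was the only match. Among the 8 of the 10 genes matched in the table, 7 held a GC box (32.7% of all promoters), 3 the core (6.47%), 3 an EGR site (4.70%), 1 a TATA box (12.4%) and 0 an AP-1 site (6.75%). The promoter of Junb held no match to any of the motifs. A match describes these letters and not a binding event. Variants of the motifs and sites beyond the 250 bases were not searched. A missing match therefore does not show that a site is absent.

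Whether the genes varied between the 16 groups more than within them was asked first, with limma's moderated F test on log2(TPM + 1) and Benjamini-Hochberg adjustment over the 20209 genes tested. Of the 10 genes 4 passed an adjusted p of 0.05, against 22.2% of all genes tested. They were Jun (adjusted p = 0.00566), Dusp1 (0.0107), Atf3 (0.0346) and Nr4a1 (0.0458). The other 6 had adjusted p-values between 0.136 (Egr1) and 0.414 (Zfp36). Groups accounted for 64.5% of the variance of Jun and 60.5% of that of Dusp1, beside 45.3% for the median gene. For Fos they accounted for 36.2%, with an adjusted p of 0.309 in the F test. The means of 16 groups of 3 libraries take up part of the variance even where groups do not differ. The spread between libraries of a group was wide for several of the genes. Fos had a residual SD of 0.68 log2 units, above 92.0% of all genes tested, Nr4a1 one of 0.60 and Egr1 one of 0.57, beside 0.38 for the median gene. Jun and Dusp1 passed without each library in turn (48 of 48), Atf3 in 41 and Nr4a1 in 15. Jun and Dusp1 alone passed without replicate 2 or 3 of the Esr1 glands of 12 months after 1 week, replicate 1 or 2 of the Esr1 glands after 6 months, or replicate 1 or 2 of the CYP19A1 glands of 12 months after 1 week. Without the 9 libraries rich in ribosomal RNA, 5 passed. These were Fos (adjusted p = 0.0239), Egr1 (0.0152), Jun (0.0221), Atf3 (0.0346) and Dusp1 (0.00821), against 22.1% of all genes. Leaving out those 9 removed all CYP19A1 libraries of 12 months after 1 week and left 1 uninduced CYP19A1 library of 12 months. That F test thus covered fewer groups than the test on all libraries. After median-of-ratios rescaling, which sets the median gene level between libraries, 4 passed (Jun, Atf3, Dusp1 and Zfp36), against 37.9% of all genes. After rescaling to the protein-coding total, without Lars2 and the mitochondrially encoded genes, 3 passed (Jun, Atf3 and Dusp1), against 35.2%.

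Short induction of Esr1 at 12 months gave the largest change of Egr1 among the 18 comparisons. Egr1 (ENSMUSG00000038418.7) had 10.7, 7.70 and 13.6 TPM after 1 week, against 1.31, 3.47 and 2.77 TPM without induction. Every induced library lay above every uninduced one, with means of 10.7 ± 2.95 TPM and 2.52 ± 1.1 TPM (SD, n = 3 each). The log2 change was 1.75 (SE 0.44, 95% interval 0.85 to 2.65), and it did not pass over all genes by limma (unadjusted p = 0.00035, adjusted p = 0.530). In this comparison 0 of the 10 genes passed an adjusted p of 0.05, as did 0.0099% of all genes, and 2 of the 10, Egr1 and Ier2, had an unadjusted p under 0.05 (5.51% of all genes). Without each of the 6 libraries in turn the log2 change of Egr1 lay between 1.47 and 1.95, with adjusted p-values from 0.195 to 1.

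Other members separated in the same comparison by narrow margins. Junb, an AP-1 subunit, had 17.3, 23.2 and 31.8 TPM after 1 week, against 8.37, 14.6 and 16.8 TPM without (log2 change 0.83, SE 0.42, limma adjusted p = 0.754). Ier2 had 7.13, 8.90 and 9.79 TPM, against 3.01, 7.01 and 5.04 TPM (0.72, SE 0.36, limma adjusted p = 0.754). Atf3 had 4.78, 6.18 and 6.06 TPM, against 2.51, 4.6 and 4.72 TPM (0.46, SE 0.39, limma adjusted p = 0.754). The groups thus did not overlap, with the induced one higher, for 4 of the 10 genes, as for 10.1% of all genes tested. Fos, which overlapped, had 5.85, 9.54 and 17.9 TPM after 1 week and 3.29, 4.79 and 7.93 TPM without. Nr4a1 was the only one with a negative change, with 4.86, 2.34 and 5.32 TPM after 1 week and 7.31, 3.08 and 9.69 TPM without (log2 change -0.52, SE 0.46). The median change of the 10 was 0.42, beside 0.22 for all genes. Luminal epithelial markers summed to between 680 and 942 TPM in the induced libraries and between 308 and 730 TPM in the uninduced ones. Macrophage markers summed to between 89.0 and 100.4 TPM in the induced libraries and between 33.4 and 76.5 TPM in the uninduced ones. Skeletal muscle markers summed to between 355 and 5553 TPM in the induced libraries and between 1894 and 14425 TPM in the uninduced ones. Their part in the change was not tested.

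At 18 months Egr1 had 7.55, 4.81 and 2.69 TPM after 1 week of Esr1 induction, against 4.36, 3.34 and 1.92 TPM without. These groups overlapped (log2 change 0.48, SE 0.44, 95% interval -0.42 to 1.38). By limma 0 of the 10 genes passed in this comparison, 0 had an unadjusted p under 0.05, and 0.0% of all genes passed.

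**Figure D2:**
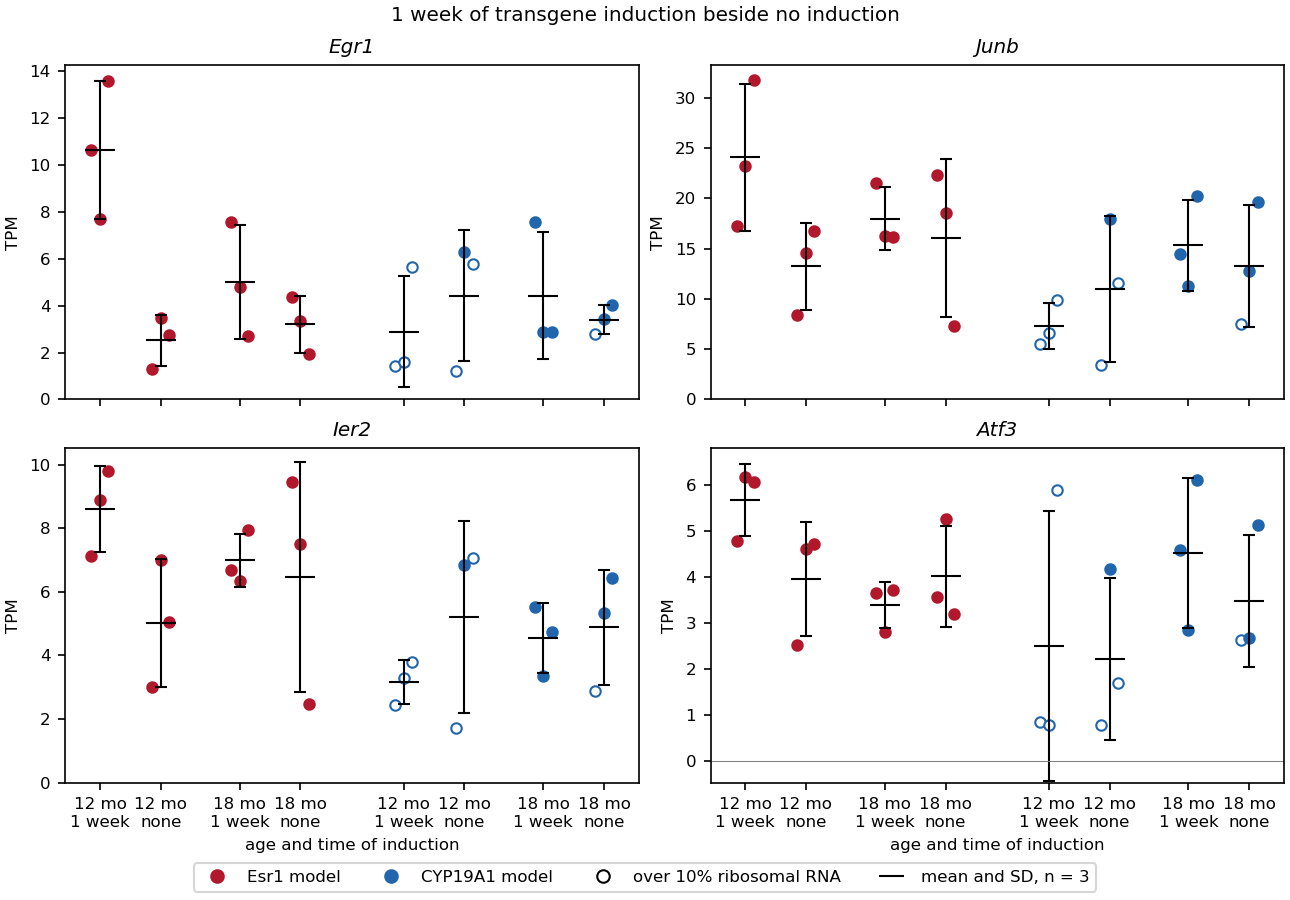
TPM of Egr1, Junb, Ier2 and Atf3 in glands after 1 week of induction, beside uninduced glands of the same age, in the Esr1 model (left) and the CYP19A1 model (right). Points are libraries, open where ribosomal RNA genes took over 10% of TPM, and bars are the mean and SD (n = 3). The 3 Egr1 values of 12-month Esr1 glands after 1 week, from 7.70 to 13.6 TPM, stand above the 3 uninduced ones, from 1.31 to 3.47 TPM.

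In the CYP19A1 model at 12 months Egr1 had 1.43, 1.61 and 5.64 TPM after 1 week, against 1.21, 6.31 and 5.77 TPM without induction (log2 change -0.46, SE 0.44). All 3 induced libraries and 2 of the 3 uninduced ones were rich in ribosomal RNA. Of the 10 genes 0 passed by limma and 0 had an unadjusted p under 0.05, with 0.0% of all genes passing. The result turned on the library at 67.2% ribosomal RNA. Without it Ier2 (log2 change -0.94, limma adjusted p = 0.0205) and Zfp36 (-0.78, limma adjusted p = 0.04999) passed, beside 12421 genes in all. At 18 months Egr1 had 7.55, 2.86 and 2.89 TPM after 1 week, against 2.80, 3.42 and 4.01 TPM without. Of the 10 genes 0 passed by limma and 0 had an unadjusted p under 0.05 there, with 0.0% of all genes passing.

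The response to 1 week was then compared between the models, over both ages, by an interaction term. For Egr1 the Esr1 response exceeded the CYP19A1 response by 1.24 log2 units (SE 0.44, 95% interval 0.34 to 2.14, unadjusted p = 0.00823, limma adjusted p = 0.548). By limma 0 of the 10 genes passed, against 0.0% of all genes, and 1 had an unadjusted p under 0.05, against 6.42% of all genes. Without the library at 67.2% ribosomal RNA, the differences of Egr1 (1.52, limma adjusted p = 0.0248) and Ier2 (0.98, limma adjusted p = 0.0281) passed, beside 6988 genes in all.

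Longer induction moved none of the 10 past the threshold at 24 months of age. After 6 months of Esr1 induction Fos had 13.9, 20.5 and 4.44 TPM and after 12 months 20.96, 10.52 and 13.9 TPM, against 11.5, 8.42 and 7.0 TPM without. The Fos groups overlapped in both comparisons. The lowest value after 6 months, 4.44 TPM, came from a library with 33.4% ribosomal RNA. The log2 change of Fos was 0.29 (95% interval -0.76 to 1.35; -0.12 to 0.87 without single libraries, and 0.87 without that one) after 6 months and 0.66 (95% interval -0.39 to 1.72) after 12 months. Fosb had the lowest changes, -0.65 after 6 months and -0.56 after 12 months (SE 0.32 each). In the CYP19A1 model Fos had 5.46, 9.09 and 4.95 TPM after 6 months and 6.55, 6.07 and 5.12 TPM after 12 months, against 5.75, 4.43 and 11.3 TPM without. These overlapped as well. Against the uninduced CYP19A1 glands, Fosb lay lower without overlap after 6 months (2.11% of all genes did), Egr1 lay lower after 12 months (1.14% of all genes) and Atf3 lay higher after 12 months (6.78% of all genes). In each of the 4 comparisons 0 of the 10 genes passed by limma and 0 had an unadjusted p under 0.05. Of all genes 0.0% passed after 6 months in either model, 0.00495% after 12 months of Esr1 induction and 0.0198% after 12 months of CYP19A1 induction. The model difference in the response to long induction also passed for 0 of the 10 by limma, with 0 at an unadjusted p under 0.05, and for 0.0% of all genes.

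Age was examined in uninduced glands. Jun (ENSMUSG00000052684.4, chromosome 4, 95049034 to 95052222, minus strand, mm10) was higher at 24 than at 12 months in CYP19A1 glands. It had 22.0, 16.8 and 20.4 TPM at 24 months, against 4.03, 15.2 and 7.84 TPM at 12 months. The ages did not overlap, and the log2 change was 1.20 (SE 0.31, 95% interval 0.58 to 1.82, limma adjusted p = 0.0155). Jun was the only one of the 10 genes to pass, against 4.24% of all genes. The call was lost under several settings. Of the 12-month libraries 2, and of the 24-month libraries 1, were rich in ribosomal RNA. Without all such libraries, which left 1 library at 12 months whose spread is taken from the other groups, the log2 change was 0.32 (limma adjusted p = 0.624). After median-of-ratios rescaling it was 0.86 (limma adjusted p = 0.0655), and after protein-coding rescaling 0.75 (0.0722). The share of all genes that passed was 0.0346% without those libraries, 0.34% after the first rescaling and 0.377% after the second. Single libraries also ended the call. The adjusted p was 0.135 without the 12-month library at 67.2% ribosomal RNA, 0.0903 without replicate 1 and 0.0718 without replicate 3 of 24 months. Without replicate 2 of 12 months, Dusp1 (log2 change 1.38, limma adjusted p = 0.0259) and Nr4a1 (1.68, limma adjusted p = 0.0253) passed beside Jun, with 3374 genes in all.

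Nr4a1 and Dusp1 also had positive changes, without passing. Nr4a1 had 7.53, 6.89 and 10.2 TPM at 24 months, against 1.26, 4.14 and 2.55 TPM at 12 months, without overlap (log2 change 1.40, SE 0.46, limma adjusted p = 0.0850). Dusp1 had 26.5, 21.8 and 19.3 TPM at 24 months, against 8.67, 20.4 and 7.38 TPM at 12 months, and overlapped (0.96, SE 0.40, limma adjusted p = 0.217). The groups did not overlap, with 24 months higher, for 2 of the 10 genes and for 9.31% of all genes. Skeletal muscle markers summed to between 15715 and 24425 TPM at 24 months and between 524 and 4183 TPM at 12 months. Luminal epithelial markers summed to between 138 and 262 TPM at 24 months and between 79.0 and 634 TPM at 12 months. Their part in these changes was not tested. Library titles are built differently at 24 and 30 months than at 12 and 18 months, and a batch with that boundary cannot be told apart from age.

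At 18 months in CYP19A1 glands Nr4a1 had 3.62, 17.0 and 11.8 TPM, against the 12-month values of 1.26, 4.14 and 2.55 TPM (log2 change 1.56, SE 0.46, limma adjusted p = 0.746). Nr4a1 overlapped between these ages. Of the 10 genes 0 passed by limma, against 0.0099% of all genes, and 4 had an unadjusted p under 0.05 (Nr4a1, Jun, Dusp1 and Zfp36), as did 5.61% of all genes. Of the 18-month libraries 1, and of the 12-month libraries 2, were rich in ribosomal RNA. Without them the log2 change of Zfp36, 0.75 with all libraries, was -0.31.

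In Esr1 glands Jun overlapped between the ages and had 14.2, 23.3 and 11.3 TPM at 24 months, against 10.3, 11.8 and 13.96 TPM at 12 months (log2 change 0.36, SE 0.31). Dusp1 had 24.5, 21.5 and 13.7 TPM at 24 months, against 12.2, 11.5 and 11.9 TPM at 12 months. It did not overlap (0.66, SE 0.40, limma adjusted p = 0.810), nor did Atf3. The groups thus stood apart, with 24 months higher, for 2 of the 10 genes, as for 3.86% of all genes. Fosb had the largest change, with 0.60, 2.28 and 2.58 TPM against 0.22, 0.67 and 0.74 TPM (0.80, SE 0.32, limma adjusted p = 0.437). All 10 changes were positive, with a median of 0.50 beside -0.08 for all genes. Macrophage markers summed to between 82.3 and 97.7 TPM at 24 months and between 33.4 and 76.5 TPM at 12 months, and their part was not tested. Of the 10, 0 passed by limma, against 0.574% of all genes, and 1 had an unadjusted p under 0.05, against 7.68% of all genes. The difference between the models in these age changes was not tested. At 18 against 12 months 0 of the 10 passed by limma and 0 had an unadjusted p under 0.05, with 0.0% of all genes passing.

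**Figure D3:**
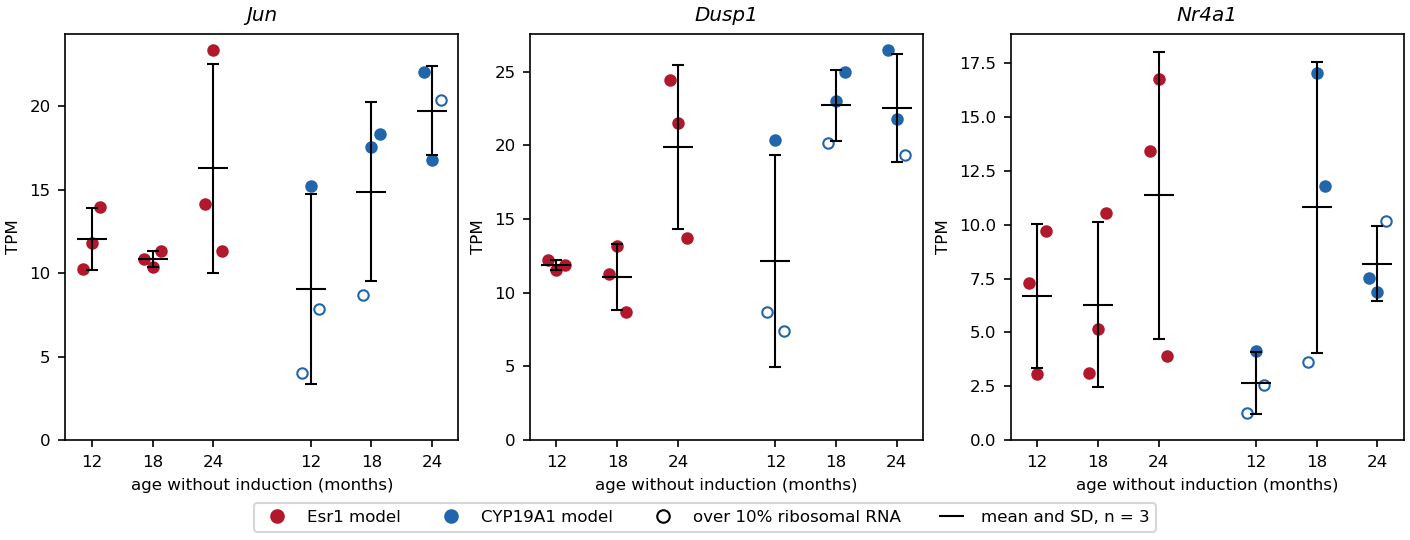
TPM of Jun, Dusp1 and Nr4a1 in uninduced glands of 12, 18 and 24 months, Esr1 model left and CYP19A1 model right in each panel. Points are libraries, open where ribosomal RNA genes took over 10% of TPM, and bars are the mean and SD (n = 3). Of the 3 CYP19A1 libraries of 12 months, the open ones hold the lowest values of Jun, 4.03 and 7.84 TPM.

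At 30 months after 18 months of Esr1 induction, Fos had 8.92, 7.96 and 6.09 TPM, against 20.96, 10.52 and 13.9 TPM at 24 months after 12 months. All 3 older libraries were below the younger ones (log2 change -0.86, SE 0.52, limma adjusted p = 0.364). Macrophage markers summed to between 43.5 and 51.6 TPM at 30 months and between 84.5 and 117 TPM at 24 months, and fibroblast markers to between 215 and 260 TPM at 30 months and between 443 and 544 TPM at 24 months. Endothelial and white adipocyte markers were lower at 30 months without overlap too, and 1 of the older libraries had 50.3% ribosomal RNA. Their part in the change was not tested. Fos was the only one of the 10 to separate downward, against 35.6% of all genes, and the median of all genes was -0.36. Of the 10, 0 passed by limma, against 0.139% of all genes, and 0 had an unadjusted p under 0.05. In CYP19A1 glands Fos had 7.01, 5.99 and 5.33 TPM at 30 months and 6.55, 6.07 and 5.12 TPM at 24 months, which overlapped. Atf3 alone lay lower at 30 months without overlap, as did 21.6% of all genes. By limma 0 of the 10 passed there and 0 had an unadjusted p under 0.05, with 0.0% of all genes passing.

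Glands of the models were compared at matched ages, as the mean of the 3 long-induced groups and as the mean of the 3 uninduced groups. Fos (ENSMUSG00000021250.13, chromosome 12, 85473890 to 85477273, plus strand, mm10) ranged from 4.44 to 20.96 TPM with a median of 10.52 TPM in long-induced Esr1 libraries, against 4.95 to 9.09 TPM with a median of 5.99 TPM in long-induced CYP19A1 libraries (9 each). Of the Esr1 libraries 5 lay above every CYP19A1 library and 1 lay below all of them. The log2 difference was 0.72 (SE 0.30, 95% interval 0.11 to 1.34, limma adjusted p = 0.186). Atf3 (ENSMUSG00000026628.13, chromosome 1, 191170296 to 191218039, minus strand, mm10) ranged from 1.87 to 9.4 TPM with a median of 6.63 TPM, against 2.28 to 6.65 TPM with a median of 3.49 TPM (0.57, SE 0.22, limma adjusted p = 0.147). Of the 10 genes 0 passed by limma, against 4.15% of all genes, and 2 had an unadjusted p under 0.05, against 17.6% of all genes.

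Fos and Atf3 passed once the scale or the libraries were changed. After median-of-ratios rescaling the log2 difference was 0.86 for Fos (limma adjusted p = 0.0208) and 0.70 for Atf3 (0.00956), and 9.89% of all genes passed. Without the libraries rich in ribosomal RNA it was 0.96 for Fos (limma adjusted p = 0.0114) and 0.74 for Atf3 (0.00556), and 4.03% of all genes passed. After protein-coding rescaling it was 0.82 for Fos (limma adjusted p = 0.0485) and 0.66 for Atf3 (0.0267), and 7.74% of all genes passed. The 2 libraries left out of these groups were both Esr1 ones and included the lowest Fos value, 4.44 TPM, and the lowest Atf3 value, 1.87 TPM. Leaving out 1 library at a time kept Fos between 0.59 and 0.92 and Atf3 between 0.48 and 0.72, with adjusted p-values from 0.0981 to 0.335 and from 0.0647 to 0.281. Macrophage markers summed to between 43.5 and 130 TPM in these Esr1 libraries and between 34.4 and 111 TPM in the CYP19A1 ones. Their part was not tested.

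In uninduced glands Atf3 ranged from 2.51 to 7.60 TPM with a median of 4.72 TPM in the Esr1 model, against 0.77 to 5.12 TPM with a median of 2.66 TPM in the CYP19A1 model (9 libraries each). The log2 difference was 0.61 (SE 0.22, limma adjusted p = 0.133), with 3 Esr1 libraries above every CYP19A1 one. It was 0.50 after median-of-ratios rescaling (limma adjusted p = 0.0489) (17.1% of all genes passed) and 0.24 without the libraries rich in ribosomal RNA. Fos ranged from 2.07 to 11.5 TPM with a median of 6.91 TPM, against 1.37 to 13.2 TPM with a median of 5.75 TPM, a difference of 0.02 (SE 0.30, 95% interval -0.59 to 0.63) that was -0.50 without those libraries (limma adjusted p = 0.212). Dusp1 ranged from 8.68 to 24.5 TPM with a median of 12.2 TPM, against 7.38 to 26.5 TPM with a median of 20.4 TPM (-0.36, SE 0.23, limma adjusted p = 0.414). Without the libraries rich in ribosomal RNA, all 4 of which belonged to the CYP19A1 model here, Dusp1 passed (-0.70, limma adjusted p = 0.0493), with 12.7% of all genes. That exclusion left 1 uninduced CYP19A1 library of 12 months, which then stood for its group in the differences of Dusp1, Fos and Atf3. It had 20.4 TPM of Dusp1, the highest value of its group. After protein-coding rescaling Dusp1 (-0.68, limma adjusted p = 0.0257), Jun (-0.35, 0.0330) and Zfp36 (-0.44, 0.0393) passed, with 20.0% of all genes. As deposited, 0 of the 10 passed by limma, against 2.95% of all genes, and 1 had an unadjusted p under 0.05, against 17.7% of all genes.

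**Figure D4:**
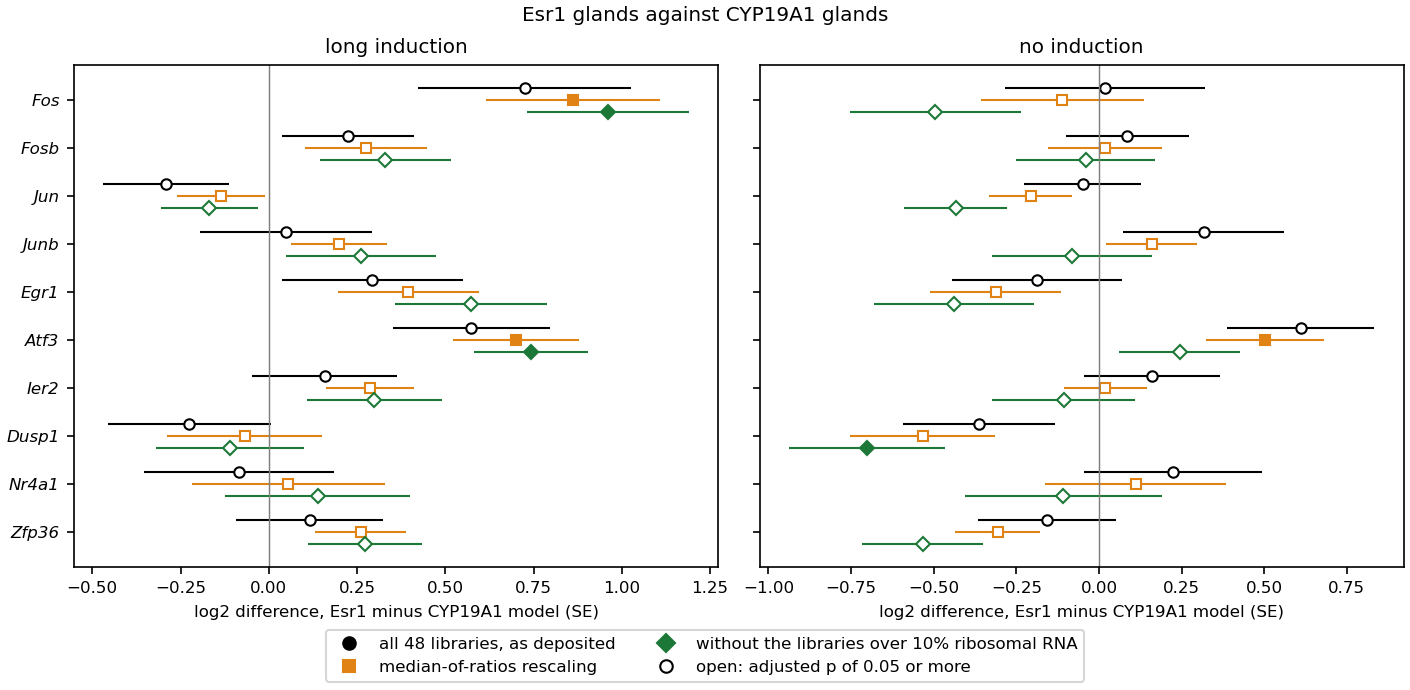
Log2 difference between Esr1 and CYP19A1 glands for each gene, in long-induced glands (left) and uninduced glands (right), with SE. Circles use all 48 libraries as deposited, squares the median-of-ratios rescaling and diamonds the 39 libraries with at most 10% ribosomal RNA, and filled symbols passed an adjusted p of 0.05. Fos and Atf3 in long-induced glands lie above 0 on all 3 scales, between 0.57 and 0.96.

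The genes were next compared with each other across libraries by Pearson's r and Spearman's rho on log2(TPM + 1), with permutation p-values (100000 pairings, two-sided) adjusted over the 45 pairs. The permutations, here and for the marker levels below, took no account of the groups. Differences between groups therefore enter these p-values. Across all 48 libraries 44 of the 45 pairs were positive, with a median r of 0.49, and 35 passed on r. For deviations from group means 45 of the 45 pairs were positive, with a median r of 0.52. The values were lower in the following settings. Over the 39 libraries with at most 10% ribosomal RNA, 36 pairs were positive, the median r was 0.40 and 26 passed. After median-of-ratios rescaling 35 were positive with a median r of 0.26.

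Fos was closest to Zfp36 and Atf3. Fos and Zfp36 had r = 0.73 (rho 0.67) over all libraries and 0.77 in the 39. Without the 2 libraries farthest from the median of Fos r was 0.66, and it was 0.78 in the 12- and 18-month libraries and 0.61 in the 24- and 30-month ones. Fos and Atf3 had r = 0.67 (rho 0.68) over all libraries, 0.69 in the 39, 0.62 without the 2 farthest, 0.72 in the younger and 0.56 in the older libraries. Permutation p-values of r and rho were 1e-05 for both pairs, the smallest that 100000 pairings can give. Both relations thus held at either age.

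Jun and Dusp1 formed another pair. They had r = 0.78 (rho 0.77) in all libraries and 0.82 in the 39, with permutation p-values of 1e-05, the smallest possible. Without the 2 farthest libraries r was 0.75, and it was 0.69 in the 12- and 18-month libraries, 0.61 in the 24- and 30-month ones and 0.77 after rescaling. Nr4a1 and Jun had r = 0.74 (rho 0.67), 0.66 without the 2 farthest, 0.75 in the younger and 0.48 in the older libraries, with the same p.

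Ier2 was closest to Junb. Ier2 and Junb had r = 0.83 (rho 0.77) in all libraries, 0.77 in the 39, 0.78 without the 2 farthest, 0.91 in the younger and 0.74 in the older ones, with permutation p-values of 1e-05, the smallest possible. After rescaling r was 0.47. Ier2 and Jun had r = 0.16 (rho 0.01) over all libraries, with an adjusted permutation p of 0.313, -0.36 in the 39 and -0.64 after rescaling. For deviations from group means Ier2 and Jun had r = 0.38. Ier2 and Nr4a1 had r = -0.05 (rho -0.10) over all libraries (adjusted permutation p = 0.787) and -0.54 in the 39 (adjusted permutation p = 0.00116). The r of this pair was 0.01 for deviations from group means, -0.42 within Esr1 libraries and 0.35 within CYP19A1 libraries.

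Each gene was set beside the level of 4 marker lists. A level was the mean log2(TPM + 1) of 7 luminal epithelial, 5 macrophage, 7 white adipocyte or 8 skeletal muscle genes. Each was also set beside 3 shares of TPM, those of ribosomal RNA, signal recognition particle RNA and protein-coding genes (70 relations, adjusted over the 70). The protein-coding share left out Lars2 and the mitochondrially encoded genes. Of the 70, 50 passed on r over all 48 libraries and 22 over the 39. The closest was Ier2 with luminal epithelial markers, with r = 0.87 (rho 0.87) in all libraries and 0.85 in the 39. Its r was 0.85 without the 2 farthest libraries, 0.85 for deviations from group means, 0.92 in the 12- and 18-month libraries, 0.75 in the 24- and 30-month ones and 0.78 after rescaling. Junb and macrophage markers had r = 0.79 (rho 0.75), 0.70 in the 39, 0.72 without the 2 farthest, 0.83 in the younger and 0.67 in the older libraries. Junb was closer to the protein-coding share, with r = 0.84 (rho 0.77), 0.61 in the 39 and 0.44 after rescaling. With the ribosomal RNA share Junb had r = -0.74, and -0.04 in the 39. With the signal recognition particle RNA share Jun had r = 0.68 (0.32 in the 39) and Nr4a1 0.62 (0.34 in the 39). Egr1 and luminal epithelial markers had r = 0.53 (rho 0.52), 0.50 in the 39, 0.47 without the 2 farthest, 0.57 in the younger and 0.39 in the older libraries. Permutation p-values of r for Ier2 and Junb were 1e-05, the smallest possible, adjusted to 4.38e-05, and that of Egr1 was adjusted to 0.000304. After rescaling r was 0.41 for Junb with macrophage markers and 0.26 for Egr1 with luminal epithelial markers.

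Nr4a1 and skeletal muscle markers had r = 0.71 (rho 0.77), 0.73 in the 39, 0.70 without the 2 farthest, 0.67 in the 12- and 18-month libraries, 0.65 in the 24- and 30-month ones and 0.47 for deviations from group means. Dusp1 and white adipocyte markers had r = 0.65 (rho 0.68), 0.63 in the 39, 0.65 without the 2 farthest, 0.66 in the younger and 0.60 in the older libraries. Nr4a1 was thus high where muscle transcripts were and Dusp1 where adipocyte transcripts were. Jun shared both relations. With skeletal muscle markers Jun had r = 0.53 (rho 0.72), 0.47 in the 39, 0.02 for deviations from group means and 0.69 after rescaling. With white adipocyte markers Jun had r = 0.54 (rho 0.49) and 0.59 in the 39. With luminal epithelial markers Jun had r = -0.08, and -0.65 in the 39. Zfp36 had r = 0.63 (rho 0.69) with white adipocyte markers and r = 0.71 (rho 0.59) with macrophage markers, 0.56 and 0.60 in the 39. Atf3 and macrophage markers had r = 0.73 (rho 0.64), 0.51 in the 39, 0.63 without the 2 farthest, 0.84 in the younger and 0.54 in the older libraries. The permutation p-values of r in these relations of Nr4a1, Dusp1, Zfp36 and Atf3 were 1e-05, the smallest possible, adjusted to 4.38e-05. For Fos the closest list was macrophages, with r = 0.54 (rho 0.48, permutation p of r adjusted to 0.000184), 0.40 in the 39 (adjusted permutation p = 0.0432), 0.64 in the younger and 0.29 in the older libraries. Which cells held the transcripts was not measured.

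**Figure D5:**
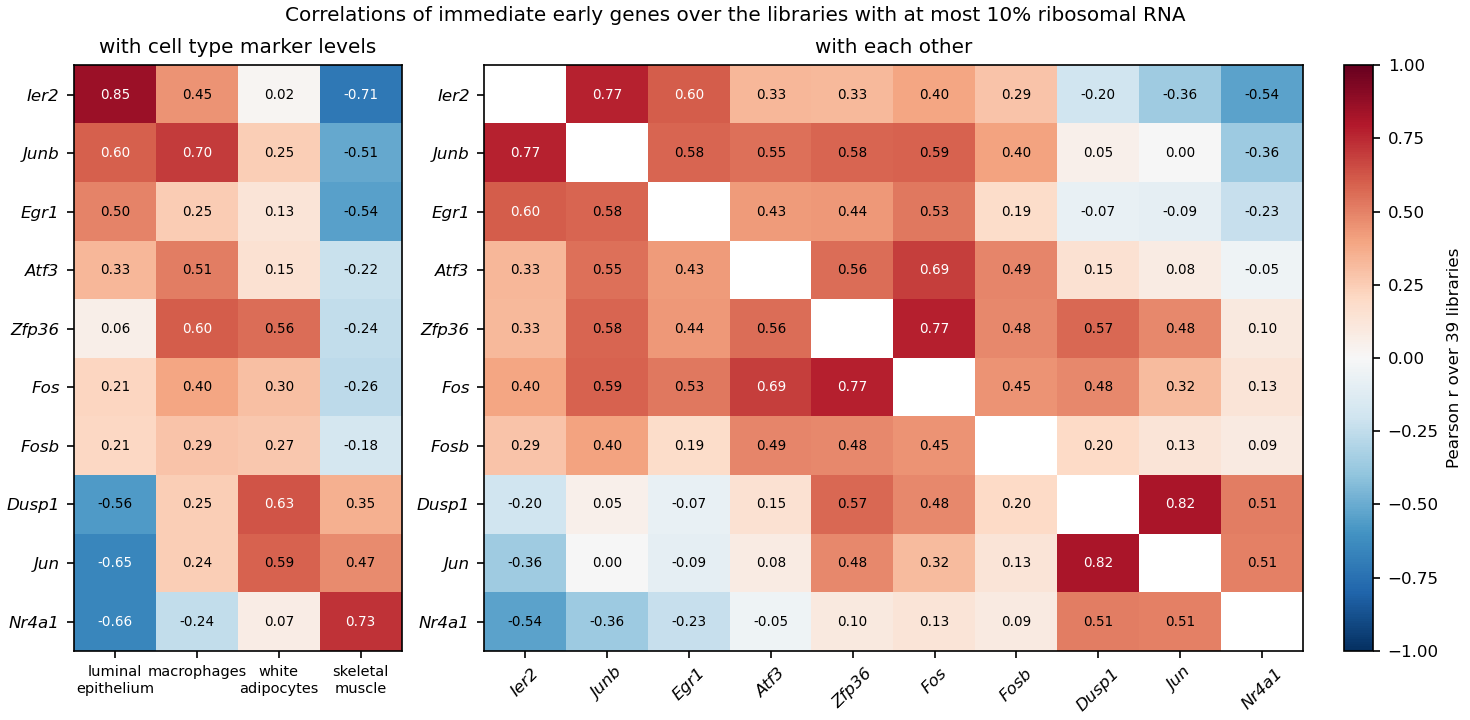
Pearson r over the 39 libraries with at most 10% ribosomal RNA, for each gene with the 4 marker levels (left) and with each other gene (right). On the left, Ier2 with luminal epithelial markers (0.85) is the deepest red and Ier2 with skeletal muscle markers (-0.71) the deepest blue, and on the right Jun with Dusp1 (0.82) is the deepest red.

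Related genes were counted in the same fit. Of 22 other immediate early transcription factors 19 were tested, and across the 18 comparisons the only call was Klf4, a Krüppel-like factor, at 24 against 12 months in CYP19A1 glands, with 9.65 ± 1.52 TPM and 4.95 ± 3.82 TPM (SD, n = 3 each; log2 change 1.04, SE 0.31, limma adjusted p = 0.0467). The median change of the 19 was 0.41 there, beside 0.22 for all genes. Of 22 immediate early effectors 21 were tested, and the only call was Sgk1, a kinase induced by serum and glucocorticoids, in the same comparison, with 35.3 ± 2.38 TPM and 19.4 ± 10.2 TPM (0.96, SE 0.29, limma adjusted p = 0.0484). In the comparison of 24 against 12 months in CYP19A1 glands 4.24% of all genes passed, and 0.34% after median-of-ratios rescaling. The call of Jun there was lost after rescaling and without the libraries rich in ribosomal RNA. Klf4 and Sgk1 were not followed in those settings. Among the 16 groups, 4 of the 19 and 7 of the 21 passed the F test, against 22.2% of all genes. Of 13 MAP kinase phosphatases and feedback genes 0 passed in any of the 18 comparisons by limma, with Nab1 at a mean of 14.4 TPM and Dusp6 at 13.7 TPM. Of 24 upstream kinases and factors 0 passed. Of the 8 AU-rich targets of Zfp36 listed, 5 were tested and 0 passed, with Vegfa at 49.0 TPM and Ccl2 at 2.18 TPM. Over the 18 comparisons an unadjusted p under 0.05 was reached 10 times by the phosphatases and feedback genes, 8 times by the upstream genes and 7 times by the targets. These were 4.27%, 1.85% and 7.78% of their tests, beside 6.17% of the tests of all genes. Their F tests passed for 1 of 13, 2 of 24 and 1 of 5.

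Heat shock genes, which also answer acute stress, were counted as well. Hspb1, a small heat shock protein gene, had 93.5 ± 5.67 TPM at 24 months and 34.4 ± 12.8 TPM at 12 months in uninduced CYP19A1 glands (SD, n = 3 each; log2 change 1.48, SE 0.36, limma adjusted p = 0.0116). Hspa8, a constitutive HSP70 gene, was lower in Esr1 than in CYP19A1 glands, by a log2 difference of -0.99 without induction (SE 0.23, limma adjusted p = 0.00706) and -0.91 after long induction (SE 0.23, limma adjusted p = 0.0116). Hspe1, a mitochondrial chaperonin gene, was higher in uninduced Esr1 glands (0.92, SE 0.18, limma adjusted p = 0.00125). These were 3 of the 11 heat shock genes tested, in comparisons where 4.24% (age), 2.95% (no induction) and 4.15% (long induction) of all genes passed. They were not followed after rescaling or without the libraries rich in ribosomal RNA. The F test passed 6 of the 11, against 22.2% of all genes.

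Genes outside the list were ranked by their correlation, over the 48 libraries, with the mean log2(TPM + 1) of the 10. Among 11343 protein-coding genes with a mean of at least 2 TPM, Btg2, an antiproliferative gene that is itself a member of the immediate early class, ranked first with r = 0.89 and r = 0.90 within groups. Tsc22d1, Klf6, Csrnp1 and Mcl1 followed with r between 0.85 and 0.87. Zswim4, Ano6, Trim47, Anxa7 and Poc5 completed the first 10, the last with r = 0.85. The ranking used TPM as deposited, including the 9 libraries rich in ribosomal RNA. The part of a shared library scale in it was not tested. Of the 10 immediate early genes themselves, Zfp36 had the highest r with the mean, 0.87, and Fosb the lowest, 0.57, each of them being part of that mean.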

How the data were processed

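RNA-seq of 48 libraries from thoracic mammary gland was deposited as TPM per gene. Per the labels' protocols, stranded libraries from ribosome-depleted total RNA were sequenced as 75 bp single ends on a NextSeq 550, to a stated minimum of 50 M reads. RSEM 1.3.1, STAR 2.7.9a, Trim Galore 0.6.5, FastQC 0.11.9 and the build mm10 appear in the submitters' processing notes. The annotation release is not given in the sources used here, and positions come from GENCODE M21, matched without the version for 1 of the 10 genes, Ier2. TPM keep no depth, so no counting interval can be given. Because TPM are shares of a fixed total, a larger share for ribosomal or muscle RNA leaves a smaller total for the other genes.

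A gene was tested where 3 or more libraries reached 1 TPM (20209 genes). A mean per group was fitted to log2(TPM + 1) of all libraries with limma 3.58.1 (intensity trend, two-sided) in R 4.3.3, and 18 comparisons and an F test were adjusted by Benjamini-Hochberg over all genes. Log2 changes are on that scale, which understates the change of scarce genes such as Fosb. The script was tested on simulated data. Correlations were computed in Python 3.11.15 with NumPy 2.4.6 and pandas 2.3.3. Alternatives were median-of-ratios and protein-coding rescaling, a pseudocount of 0.1, no filter, only the groups compared, a replicate block, leaving out the 9 libraries over 10% ribosomal RNA, and leaving out each library. Rescaling combined with leaving out those 9, and the relations of all 10 genes, which began as Fos alone, were added after seeing the data.

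The 10 genes and all lists were chosen with earlier results of these data known. Named beside the 10 were list genes that passed, otherwise the 2 most abundant of a list (not reported here for the upstream kinases and factors), and the 10 genes most like the mean of the 10. In the 2-group comparisons, same-numbered libraries deviated together, with every r over 0.1, in 1 of 14. This was 30 against 24 months in CYP19A1 glands (r from 0.11 to 0.25), where the block changed no call.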

Additional observations from a re-analysis of the deposited data

How the results depend on the processing

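At 24 against 12 months in uninduced CYP19A1 glands the count of the 10 genes past the threshold was 1, and it was 0 under median-of-ratios rescaling, protein-coding rescaling, a fit of only the groups compared, without the libraries over 10% ribosomal RNA, and with rescaling and that exclusion together. Its cause was not tested. It ranged from 0 to 3 without single libraries. In the comparison of the models without induction the count of 0 became 1 after median-of-ratios rescaling (Atf3), 3 after protein-coding rescaling (Jun, Dusp1 and Zfp36) and 1 without the libraries rich in ribosomal RNA (Dusp1), and it ranged from 0 to 1 without single libraries. After long induction it became 2 (Fos and Atf3) under median-of-ratios rescaling, protein-coding rescaling, exclusion of those libraries, and both together. It ranged from 0 to 2 without single libraries after 1 week of CYP19A1 at 12 months and for the model difference in the response to 1 week. The F test passed 2 of the 10 with no filter on low values (Jun and Dusp1) and 2 to 5 without single libraries. These are counts, and no call other than those of Jun and Dusp1 in the F test held under every alternative. Shares of all genes that passed are not given for no filter, only the groups compared, or rescaling and exclusion together. The counts in those settings therefore cannot be set beside such a share.

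With a replicate block, 3 of the 10 passed the F test (Jun, Atf3 and Dusp1) and Nr4a1 did not. The share of all genes that passed with the block is not given, so this count cannot be set beside it. The count at 24 against 12 months in CYP19A1 glands stayed 1 (Jun), and the block changed no other call. In 13 of the 14 comparisons of 2 groups same-numbered libraries did not all correlate above 0.1. After 1 week of CYP19A1 at 18 months r ran from 0.09 to 0.35. Differently numbered libraries were not compared, so this check cannot decide whether the numbers pair libraries.

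Zfp36 turned its sign under some settings, and none of the turned values passed. After 1 week of CYP19A1 at 12 months its log2 change was 0.18 under both rescalings and ranged from -0.78 to 0.31 without single libraries. At 18 against 12 months in CYP19A1 glands it was -0.31 without the libraries rich in ribosomal RNA and -0.062 with rescaling as well. Between the models without induction, without single libraries, Zfp36 ranged from -0.35 to 0.0122 and Jun from -0.19 to 0.0938. Of 7 library measures, 5 correlated with Fos in all libraries when adjusted over these 7 alone. By that adjustment the number was 0 after median-of-ratios rescaling, 1 after protein-coding rescaling and 0 without the 9 libraries, where macrophage markers passed when adjusted over the 70 relations. The r of Fos with the ribosomal RNA share turned to 0.0209, 0.0439 and 0.0984 in these settings, and with the protein-coding share to -0.13 and -0.14 after the rescalings. The median change of all genes was -0.00413 rather than 0.22 after median-of-ratios rescaling at 24 against 12 months in CYP19A1 glands, 0.01 rather than -0.32 after 1 week of CYP19A1 at 12 months and 0.01 rather than -0.36 at 30 against 24 months in Esr1 glands. Comparisons with the 12-month CYP19A1 glands after 1 week could not be fitted without the libraries rich in ribosomal RNA, which are all 3 of that group. Depth cannot be read from TPM, so its limits are unknown. With 3 libraries a group and residual SDs up to 0.68 log2 units, moderate changes of Fos, Nr4a1 and Egr1 could not be resolved.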
